A study of Mus musculus with 11 samples.

Results

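Mitochondrial ribosomal protein (MRP) genes were examined in dissociated mouse retinas at P10, in the whole retina and in 5 cell classes defined by marker genes. The set was taken by gene symbol, as every symbol made of Mrpl or Mrps, a number and at most 1 letter. It held 78 of the 25311 genes of the count matrix, 49 with Mrpl symbols and 29 with Mrps symbols. Retinas of 11 C57BL/6J pups were captured cell by cell with inDrop, in which each RNA molecule carries a unique molecular identifier (UMI), so that molecules and not reads are counted. Control pups (n = 3 mice) received PBS. Phase I ROP pups (n = 3 mice) were their littermates and received streptozotocin (STZ), a toxin of insulin-producing beta cells that raises blood glucose in neonates. Further littermates all received STZ and were divided between nursing dams on an ω-3 LCPUFA diet (DHA and EPA, n = 2 mice) or an ω-6 LCPUFA diet (arachidonic acid, n = 3 mice). No control mouse was on an enriched diet and no mouse on an enriched diet went without STZ, so the diets can be compared only within Phase I ROP. The retinas were freed of the anterior segment and the retinal pigment epithelium, although 75 cells with pigment epithelium markers remained.

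Mitochondria carry their own ribosome, the mitoribosome, which translates the few proteins encoded by mitochondrial DNA, all of them subunits of the oxidative phosphorylation complexes. Its ribosomal RNAs come from mitochondrial DNA, whereas all of its proteins are encoded in the nucleus, made in the cytosol and imported. Photoreceptors are among the most energy-demanding cells of the body and pack mitochondria into their inner segments, and the transcription factors NRF1, GABP (an ETS factor) and YY1 are known regulators of nuclear genes for mitochondrial proteins.

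Of the 78 genes, 46 encode proteins with a counterpart in bacterial ribosomes and 31 encode proteins found only in mitochondria. Mrps18a and Mrps30, despite their symbols, encode proteins of the large subunit. The remaining gene, Mrps36, encodes a protein now placed with the 2-oxoglutarate dehydrogenase complex and not with the ribosome. Another 6 mitoribosome proteins have other symbols, among them Dap3, and were followed beside the set.

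The genes were spread over 17 chromosomes, and 69 of the 78 had a RefSeq promoter window (GRCm38.p6, 250 bases before to 50 bases after the start). Searched on both strands, the NRF1 motif (GCGCA, any base, GCGC) lay in the windows of 18.8% of these 69 genes, against 5.19% of the 27025 genes with a window and 11.1% of the 10405 such genes that passed the filter on low counts in at least 1 comparison. The ETS motif CCGGAAG lay in 37.7%, 9.93% and 18.8% and the YY1 motif AAGATGGC in 17.4%, 3.19% and 5.13% of the same sets. At least 1 of these 3 motifs was found for 43 MRP genes (62.3%), against 16.4% of all genes and 30.8% of those that passed the filter. The SP motif GGGCGG lay in 49.3% of the MRP genes, more than the 38.2% of all genes but less than the 66.2% of those that passed the filter. The 250 bases before the start are shown for 6 genes described below, Mrps26, Mrps31 and Mrpl41, which fell in Phase I ROP, and Mrpl44, Mrpl53 and Mrps25, which rose. Each is written in the direction of transcription. Capitals mark the letters of ETS matches in Mrps26 and Mrpl53 and of an NRF1 match in Mrpl44, and the last 2 capitals of Mrps26 are the start of an NRF1 match that continues into the transcript. The windows of Mrps31, Mrpl41 and Mrps25 held none of these 3 motifs. A match describes the letters only and says nothing of binding in these cells.
Mrps26 promoter, chr2:130563507-130563756, + strand: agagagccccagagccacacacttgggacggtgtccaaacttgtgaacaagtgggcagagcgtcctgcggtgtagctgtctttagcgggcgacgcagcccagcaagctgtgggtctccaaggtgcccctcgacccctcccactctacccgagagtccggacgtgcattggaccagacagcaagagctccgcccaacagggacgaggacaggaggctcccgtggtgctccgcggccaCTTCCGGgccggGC
Mrps31 promoter, chr8:22411090-22411339, + strand: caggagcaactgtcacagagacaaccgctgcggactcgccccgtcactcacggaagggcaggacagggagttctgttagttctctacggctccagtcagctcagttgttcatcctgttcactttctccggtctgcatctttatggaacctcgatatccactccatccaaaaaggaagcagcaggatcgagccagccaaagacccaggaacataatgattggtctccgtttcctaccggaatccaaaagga
Mrpl41 promoter, chr2:24975099-24975348, - strand: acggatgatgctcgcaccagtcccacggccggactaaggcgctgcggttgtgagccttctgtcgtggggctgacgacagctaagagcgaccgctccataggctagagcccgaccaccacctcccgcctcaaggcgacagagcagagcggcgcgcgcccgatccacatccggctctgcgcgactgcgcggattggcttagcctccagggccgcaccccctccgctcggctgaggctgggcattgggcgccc
Mrpl44 promoter, chr1:79775768-79776017, + strand: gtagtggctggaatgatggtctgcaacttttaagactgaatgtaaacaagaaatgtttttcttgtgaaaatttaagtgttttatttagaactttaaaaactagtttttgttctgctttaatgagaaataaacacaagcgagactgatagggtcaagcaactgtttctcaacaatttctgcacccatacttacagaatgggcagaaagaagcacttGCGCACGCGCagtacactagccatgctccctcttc
Mrpl53 promoter, chr6:83108858-83109107, + strand: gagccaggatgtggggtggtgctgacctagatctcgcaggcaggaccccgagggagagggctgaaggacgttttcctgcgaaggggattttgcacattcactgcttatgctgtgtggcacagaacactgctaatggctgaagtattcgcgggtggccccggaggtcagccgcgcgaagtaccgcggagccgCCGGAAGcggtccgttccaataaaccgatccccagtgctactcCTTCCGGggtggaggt
Mrps25 promoter, chr6:92184024-92184273, - strand: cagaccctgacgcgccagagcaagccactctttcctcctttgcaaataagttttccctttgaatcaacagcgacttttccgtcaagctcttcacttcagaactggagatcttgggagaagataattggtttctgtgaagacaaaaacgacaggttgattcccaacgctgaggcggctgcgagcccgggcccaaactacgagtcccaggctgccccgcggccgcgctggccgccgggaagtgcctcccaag
Mrpl13 and Mrpl15 had no window. In the GENCODE M21 annotation of GRCm38, Mrps26 lies at chr2:130563742-130568695 on the + strand, Mrpl13 at chr15:55534094-55557748 on the − strand and Mrpl15 at chr1:4773206-4785739 on the − strand.

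The clustering used 20033 cells, of which 9863 were rods, 3596 bipolar cells, 3287 amacrine cells, 1425 Müller glia and 1126 cones, and the smaller classes were not tested. UMIs summed to between 2563064 and 6516478 per mouse. Median UMIs per cell were 1550 to 2341 in control mice and 1004 to 1190 in Phase I ROP mice. The 3 control libraries stood apart from all 8 libraries of STZ-treated mice, and preparation and treatment cannot be told apart from the labels. Rods made up 27.2% ± 3.79 (SD, n = 3) of control cells and 50.9% ± 4.16 (n = 3) of Phase I ROP cells. Control cones were few, at 13 to 46 cells per mouse. A total of 2352 cells (11.7%) carried a barcode seen in more than 1 library.

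MRP transcripts were a small and broadly shared part of the retinal transcriptome. Together the 78 genes gave 185541 UMIs, or 0.405% of all UMIs, and every one of them was detected in every class tested. Over the 11 mice the share of UMIs from MRP genes was 0.460% ± 0.0641 (SD) in rods and 0.459% ± 0.0464 in cones. Among inner retinal classes, bipolar cells had 0.425% ± 0.0580, amacrine cells 0.367% ± 0.0551 and Müller glia 0.364% ± 0.0707. Rods lay above amacrine cells in 11 of 11 mice, above bipolar cells in 10 and above cones in 5. Bipolar cells lay above amacrine cells and above Müller glia in 11 of 11 mice, whereas amacrine cells lay above Müller glia in 6. Rods and cones, and likewise amacrine cells and Müller glia, therefore could not be ordered. These values join 3 control with 8 STZ-treated mice, and the order was not the same in both. Control means were 0.539% in rods, 0.513% in bipolar cells, 0.497% in cones, 0.470% in Müller glia and 0.451% in amacrine cells. Cones lay above bipolar cells in 1 of 3 control mice and in 8 of 8 STZ-treated mice. The classes come from the same mice and libraries and differ in depth, and their differences were not tested.

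Single genes departed from this common pattern. Mrpl49, a large subunit protein found only in mitochondria, was at 229 CPM (UMI counts scaled to a common library total) ± 33.7 (SD, n = 11 mice) in rods and 45.8 ± 10.7 in Müller glia, a ratio of 5.01, and was highest in rods in all 11 mice among the 4 classes without cones. Mrpl9, which has a bacterial counterpart, was at 183 ± 109 CPM in rods and 40.9 ± 14.5 in Müller glia (ratio 4.47), but its rod mean joins control mice at 383, 181 and 413 CPM with STZ-treated mice at 93.6 to 166. Mrpl2, a protein at the core of the large subunit, was at 61.0 ± 18.5 CPM in rods and 20.2 ± 6.9 in amacrine cells (ratio 3.03). Mrpl36 showed the opposite order, with 60.9 ± 29.0 CPM in Müller glia and 26.2 ± 7.8 in rods, and Müller glia were above rods in 10 of 11 mice. The small subunit gene Mrps6 was at 37.6 ± 12.3 CPM in amacrine cells and 16.7 ± 10.5 in rods, the lower class in 11 of 11 mice. Of its 1533 exon bases, 464 are shared with Gm49711 and Slc5a3 on the same strand, so that its counts are uncertain. Mrps5, at the entry of the mRNA channel, was at 60.0 ± 9.6 CPM in bipolar cells and 29.9 ± 13.5 in Müller glia. Among the 4 classes without cones it was highest in bipolar cells in all 11 mice. All genes were ranked by mean CPM over the 4 classes without cones. Of the 78 genes, 31 were highest in bipolar cells, 29 in rods, 12 in Müller glia and 6 in amacrine cells. Some genes had a higher mean in cones, such as Mrpl34 (207 CPM against 149 in bipolar cells). For 12 genes the highest of these 4 classes was more than 2 times the lowest, and the median ratio was 1.58.

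Setting Phase I ROP mice against control mice asked whether STZ treatment was accompanied by a change in MRP transcripts. The share of UMIs from MRP genes was lower in Phase I ROP in every class tested. In bipolar cells it was 0.527%, 0.499% and 0.512% in control mice and 0.366%, 0.399% and 0.405% in Phase I ROP mice. In amacrine cells it was 0.460%, 0.431% and 0.462% against 0.339%, 0.337% and 0.337%, and in Müller glia 0.494%, 0.482% and 0.433% against 0.297%, 0.342% and 0.311%. In these 3 classes no Phase I ROP mouse reached the lowest control mouse, and the mean share was lower by 24.0%, 25.1% and 32.6%. In rods the control mice had 0.588%, 0.442% and 0.585% and the Phase I ROP mice 0.419%, 0.448% and 0.457%, so that control replicate 2 lay among the Phase I ROP mice. In cones, with few control cells, the values were 0.491%, 0.443% and 0.558% against 0.370%, 0.431% and 0.439%. With 3 mice per group, the smallest p that an exact two-sided permutation test of these shares allows is 0.1, and none was run.

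**Figure D1:**
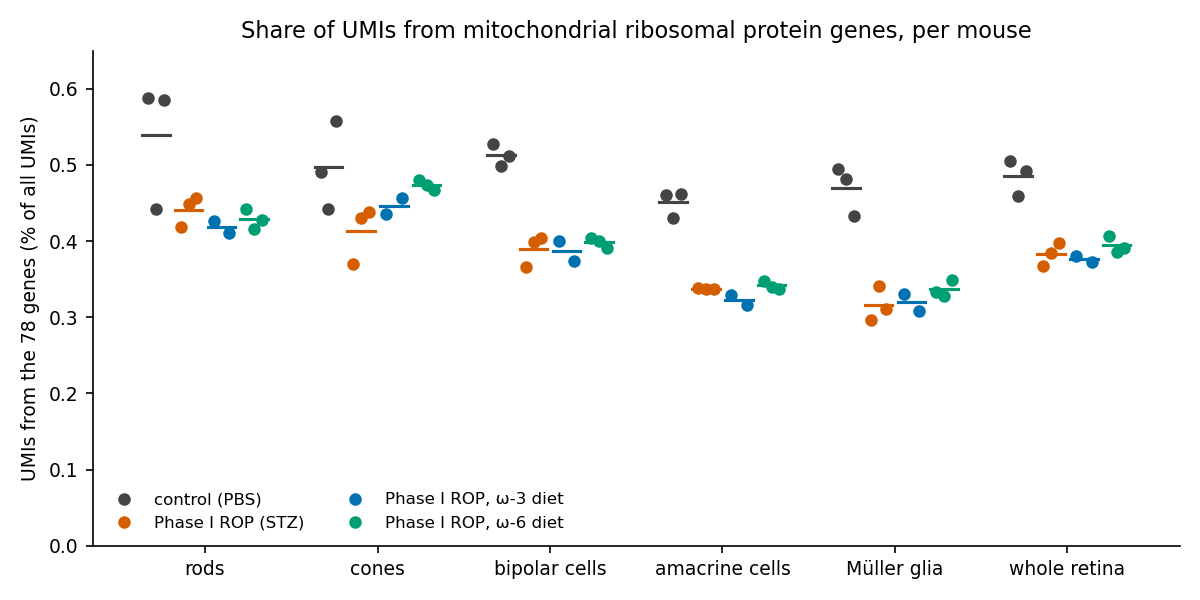
UMIs from the 78 MRP genes as a percent of all UMIs (y axis) in each mouse, by cell class and in the whole retina (x axis). Points are mice, bars are group means, grey is control, orange Phase I ROP, blue Phase I ROP on the ω-3 diet and green on the ω-6 diet. In bipolar cells, amacrine cells and Müller glia every control mouse lay above every STZ-treated mouse, whereas in rods control replicate 2 (0.442%) lay within the range of the other groups.

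The test of single genes read UMIs summed per mouse, with TMM scaling, which centres each comparison on the bulk of genes. A gene was called at an adjusted p under 0.05 over all genes tested. Bipolar and amacrine cells carried most of the calls. In bipolar cells 41 of the 78 MRP genes fell and 2 rose, so that 55.1% were called where 45.3% of all tested genes were (23.9% lower and 21.3% higher). In amacrine cells 42 of 78 fell and none rose, and 53.8% were called against 38.8% of all tested genes (20.5% lower and 18.3% higher). The median log2 fold change of the MRP genes was −0.72 in bipolar cells and −0.73 in amacrine cells, where the median of all tested genes was 0.02 in both. With scaling by library totals alone, the median of all genes moved to 0.45 and 0.37 and those of the MRP genes to −0.30 and −0.37. With that scaling 15 MRP genes fell and 3 rose in bipolar cells, and 23 fell and 1 rose in amacrine cells. These counts are not set against the share of all genes called with library totals, which is not given here.

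Rods, cones and Müller glia gave fewer calls, a share of the genes no larger than that of all genes. In rods 72 MRP genes passed the filter on low counts, of which 13 fell and 1 rose. That is 19.4%, against 38% of all tested genes (20% lower, 17.9% higher). In cones 20 genes passed and 3 fell, or 15% against 18.8% of all tested genes (7.9% lower, 10.9% higher), and in Müller glia 40 passed and 3 fell, or 7.5% against 10.8% (5.03% lower, 5.81% higher). The genes that did not pass were not tested, so these counts do not stand for all 78. Median log2 fold changes of those tested were −0.31 in rods, −0.56 in cones and −0.51 in Müller glia, and that of rods turned to 0.03 with library totals alone, where the median of all genes was 0.35, and to 0.05 without the filter. With library totals alone, 5 MRP genes fell and 3 rose in rods, none was called in cones and 3 fell in Müller glia. The share of all genes called with that scaling is not given here. The rod count also depended on single libraries, falling to 4 genes without STZ replicate 3, 5 without STZ replicate 2, 6 without STZ replicate 1 and 9 without control replicate 3. The share of all genes called in those fits is not given here, so whether MRP genes lost more calls than other genes cannot be read from them.

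**Figure D2:**
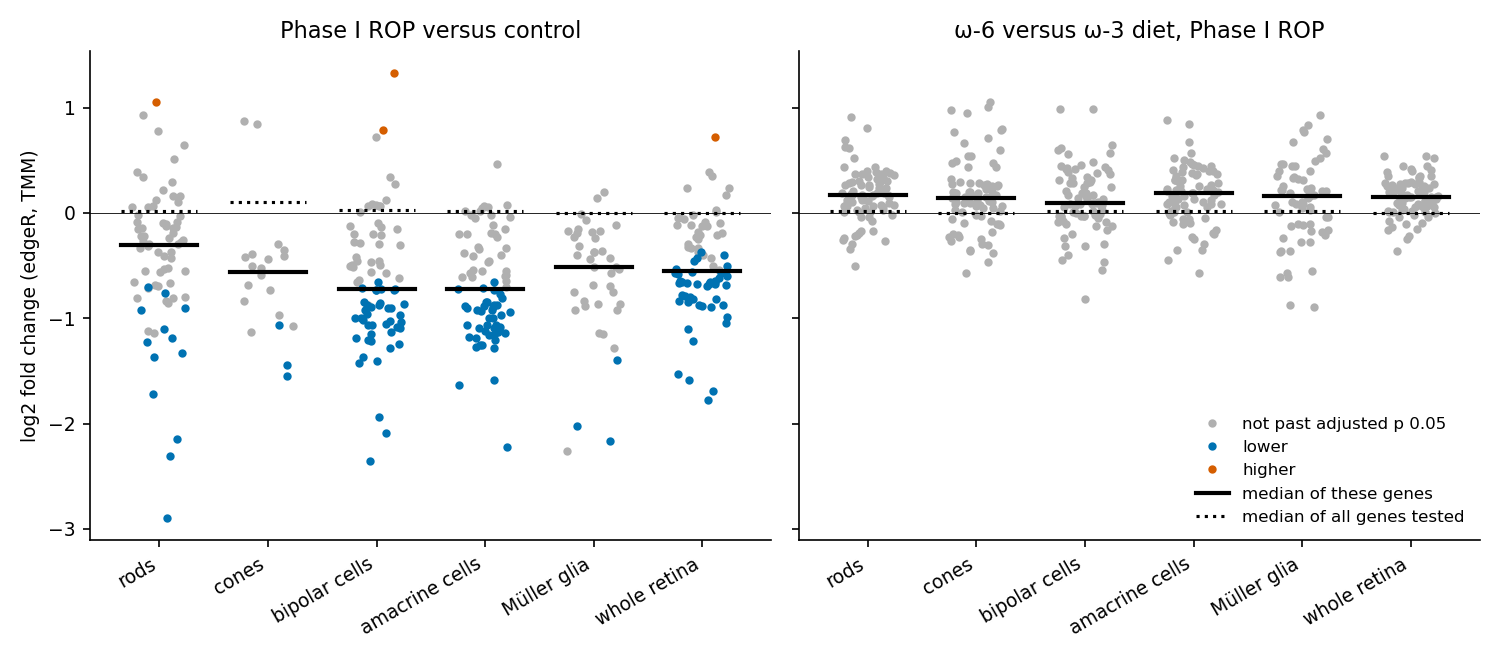
Log2 fold change (y axis) of every MRP gene tested, by class and in the whole retina (x axis), for Phase I ROP versus control on the left and ω-6 versus ω-3 diet on the right. Blue and orange points are genes lower or higher at an adjusted p under 0.05, solid bars are medians of MRP genes and dotted bars medians of all genes tested. Most points on the left lie below 0, with medians from −0.73 to −0.31, and no point on the right is coloured.

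In the whole retina 45 of 78 genes fell and 1 rose, so that 59% were called against 48.1% of all tested genes (23.4% lower, 24.7% higher), with a median log2 fold change of −0.56. A whole-retina sum mixes classes whose proportions differed between the groups, so that fewer cells of a class and less RNA per cell cannot be told apart there. The 5 largest falls there were those of Mrps26 (−1.77), Mrpl13 (−1.69), Mrpl15 (−1.59), Mrps31 (−1.53) and Mrpl41 (−1.21), with adjusted p from 1.36e-05 to 0.000468. Mrps31 was at 38.1, 21.7 and 28.2 CPM in control mice and 9.30, 9.42 and 11.6 in Phase I ROP mice, and Mrpl41 at 85.9, 76.0 and 82.0 against 35.7, 33.8 and 35.5. By symbol, 29 of the 49 Mrpl genes and 16 of the 29 Mrps genes fell. Of the genes with a bacterial counterpart 28 of 46 fell, and of those found only in mitochondria 16 of 31 fell and 1 rose. In bipolar cells 29 of 49 Mrpl and 12 of 29 Mrps genes fell, and in amacrine cells 28 of 49 and 14 of 29 fell. Whether these shares differ was not tested.

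Mrps26, a small subunit protein found only in mitochondria, was among the genes with the largest falls. In rods it was at 467, 623 and 586 CPM in control mice and 137, 109 and 92.6 in Phase I ROP mice. The groups lay apart, a condition for naming the gene, and the log2 fold change was −2.31 (SE 0.24, adjusted p = 3.99e-06). In bipolar cells it was at 582, 497 and 394 CPM in control mice and 154, 117 and 112 in Phase I ROP mice (log2 fold change −1.94, SE 0.18, adjusted p = 1.89e-06). In Müller glia it was at 518, 555 and 148 CPM against 102, 101 and 88.0, with control replicate 3 much nearer to Phase I ROP than the other controls. The log2 fold change of −2.02 (SE 0.41, adjusted p = 0.00562) became −0.88 (adjusted p = 0.11) without the 5% of cells most like doublets. In cones the groups overlapped, at 71.4, 68.8 and 278 CPM against 109, 176 and 108 (−0.39, adjusted p = 0.613).

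Mrpl13, of the large subunit and with a bacterial counterpart, had the largest fall of any MRP gene tested in rods. It was at 608, 623 and 446 CPM in control rods and 94.8, 61.9 and 65.8 in Phase I ROP rods. No mouse overlapped, a condition for naming the gene, and the log2 fold change was −2.89 (SE 0.25, adjusted p = 1.17e-06), or 7.43-fold lower. The size of this fall depended on which rods were counted. Mrpl13 was among the 10 leading genes of a rod cluster of 451 cells, where 98.5% of cells held a UMI of it, and that cluster held 12.2% of control rods and 2.26% of Phase I ROP rods. Mrpl15 was likewise a leading gene of a cluster with 2.78% and 1.58% of the rods. In the 9255 rods outside these 2 clusters, Mrpl13 was at 248, 107 and 138 CPM in control mice and 53.8, 32.1 and 46.7 in Phase I ROP mice (−1.87, SE 0.33, adjusted p = 0.000307), and Mrps26 then had the larger fall (−2.13). In the 7492 rods of clusters led by a rod marker the value for Mrpl13 was −2.05. In bipolar cells Mrpl13 was at 205, 411 and 176 CPM in control mice and 48.8, 43.7 and 60.3 in Phase I ROP mice (−2.35, SE 0.30, adjusted p = 3.27e-05). Its fall was smaller in amacrine cells (−1.19, SE 0.22, adjusted p = 0.000785), and in Müller glia the value of −0.92 did not pass the test (adjusted p = 0.0922). Part of the Mrpl13 exons, 330 bases, is shared with Mtbp on the opposite strand.

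Mrpl15, which has a bacterial counterpart in the large subunit, had one of the largest falls in rods, bipolar cells and Müller glia. In amacrine cells its log2 fold change was −1.09, and a difference between classes did not pass in the joint edgeR fit (adjusted p = 0.194). In rods it was at 194, 317 and 254 CPM in control mice and 66.4, 52.8 and 51.9 in Phase I ROP mice (−2.14, SE 0.25, adjusted p = 1.37e-05), or −1.79 outside the 2 clusters led by an MRP gene (adjusted p = 6.03e-05). In bipolar cells it was at 250, 221 and 166 CPM against 51.8, 54.2 and 43.9 (−2.09, SE 0.21, adjusted p = 4.17e-06). In Müller glia it was at 288, 100 and 190 CPM against 60.5, 11.3 and 52.8, and STZ replicate 2 held only 2 UMIs of it (−2.16, SE 0.46, adjusted p = 0.00838). The controls were scattered in Müller glia, and that no mouse overlapped there was a condition for naming the gene. Without control replicate 1 the change no longer passed (adjusted p = 0.054). Mrpl15 and Mrps26 were the only MRP genes among the 2000 variable genes that shaped the clusters.

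**Figure D3:**
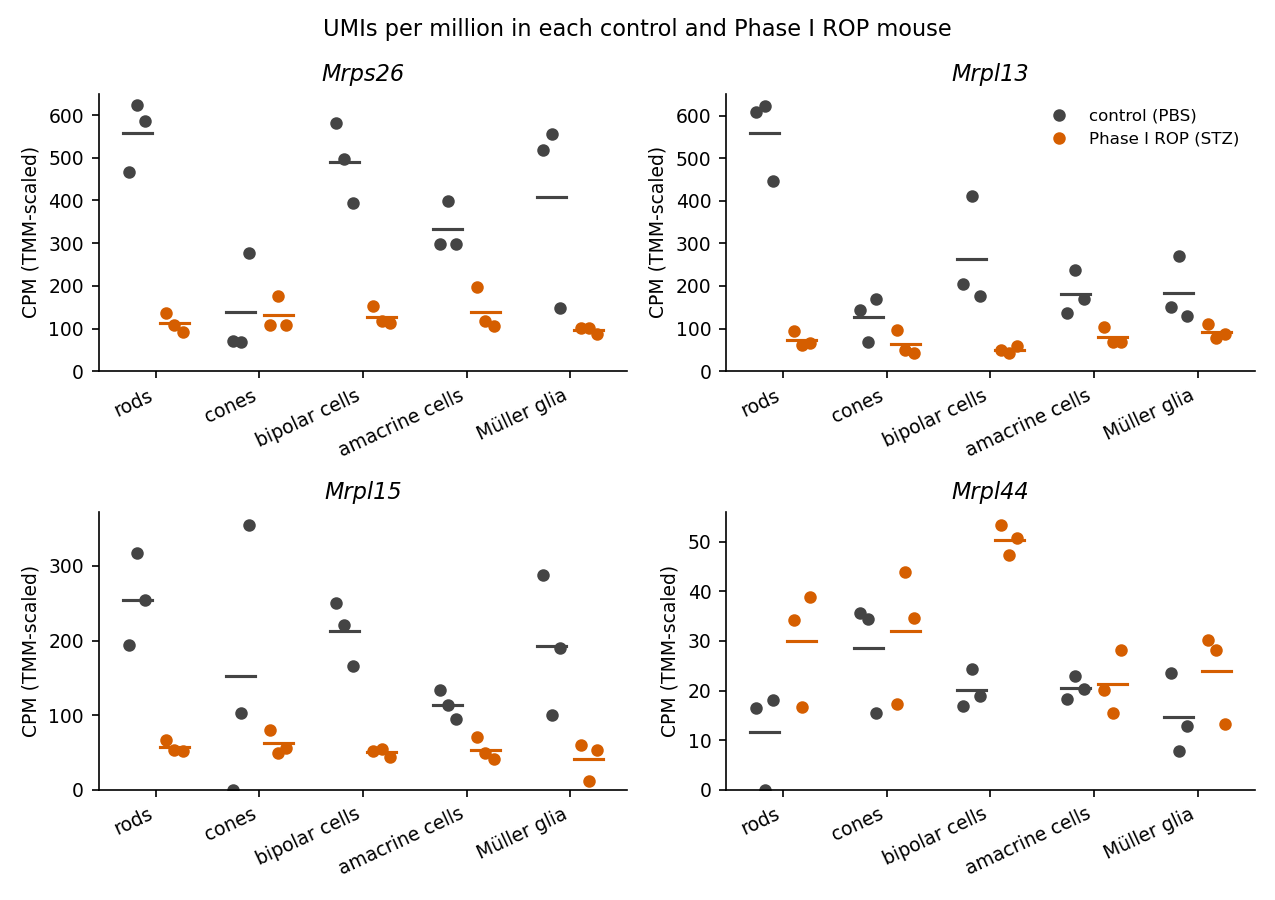
TMM-scaled CPM (y axis, linear from 0) of Mrps26, Mrpl13, Mrpl15 and Mrpl44 in each control mouse (grey) and Phase I ROP mouse (orange) in 5 cell classes (x axis); bars are group means. Mrps26, Mrpl13 and Mrpl15 were lower in all Phase I ROP mice in rods and bipolar cells, and Mrpl44 was higher in all Phase I ROP mice in bipolar cells (47.2 to 53.3 against 16.9 to 24.3).

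Mrpl9 fell in rods, the class where it was most abundant. It was at 455, 229 and 503 CPM in control rods and 165, 87.5 and 111 in Phase I ROP rods (−1.72, SE 0.30, adjusted p = 0.000332). The lowest control mouse remained above the highest Phase I ROP mouse. The log2 fold change of Mrpl9 was also −1.36 in bipolar cells and −0.85 in amacrine cells. A difference between classes did not pass in the joint edgeR fit (adjusted p = 0.115). The Mrpl9 exons share 157 bases with Oaz3 on the opposite strand.

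In amacrine cells the 3 largest called falls were those of Mrps31, Mrpl41 and Mrpl14. In bipolar cells their log2 fold changes were −1.43, −0.92 and −1.21. None of the 3 passed the joint edgeR test of a difference between classes (adjusted p = 0.741, 0.744 and 0.154). Mrps31, a small subunit protein found only in mitochondria, was at 55.7, 25.1 and 29.7 CPM in control mice and 10.0, 6.22 and 7.25 in Phase I ROP mice (−2.22, SE 0.41, adjusted p = 0.000713). Its Phase I ROP values rest on 6 to 10 UMIs per mouse. Mrpl41, a large subunit protein found only in mitochondria, was at 96.6, 121 and 95.7 CPM against 33.0, 33.1 and 34.4 (−1.64, SE 0.20, adjusted p = 3.52e-05). Mrpl14, with a bacterial counterpart at the face between the subunits, was at 50.02, 58.2 and 59.3 CPM against 19.0, 14.5 and 21.8 (−1.58, SE 0.27, adjusted p = 0.000393). That none of the 3 overlapped between the groups was a condition for naming them.

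In Müller glia the third gene to fall was Mrpl36, a very small protein of the large subunit. It was at 122, 154 and 99.8 CPM in control mice and 52.9, 45.04 and 39.6 in Phase I ROP mice (−1.40, SE 0.35, adjusted p = 0.0206). Mrpl36 was highest in this class, but its log2 fold change was also −1.16 in amacrine cells and −0.995 in bipolar cells, against 0.30 in rods. A difference between classes did not pass in the joint edgeR fit (adjusted p = 0.174). In cones the 3 genes that fell encode large subunit proteins with bacterial counterparts, Mrpl17 (178, 103 and 216 CPM against 69.0, 65.9 and 47.5), Mrpl30 (143, 344 and 278 against 57.5, 121 and 104) and Mrpl34 (428, 378 and 432 against 132, 203 and 255). Their log2 fold changes were −1.55, −1.45 and −1.06 (adjusted p = 0.0278, 0.0227 and 0.0311). The control cones held few molecules, 3 to 14 UMIs of Mrpl17 per mouse, and none of the 3 genes passed without control replicate 3 or without the filter.

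In the classes 3 genes rose. Mrpl44, a large subunit protein found only in mitochondria and related to RNase III enzymes, was at 16.9, 24.3 and 19.0 CPM in control bipolar cells and 53.3, 47.2 and 50.7 in Phase I ROP bipolar cells. The groups did not overlap, a condition for naming the gene, and the log2 fold change was 1.33 (SE 0.30, adjusted p = 0.00276). In amacrine cells Mrpl44 was at 18.2, 22.8 and 20.2 CPM against 20.0, 15.5 and 28.1, overlapping throughout (0.06, adjusted p = 0.897). In the whole retina it was at 17.8, 18.3 and 16.8 CPM in control mice and 29.9, 23.7 and 33.4 in Phase I ROP mice (0.72, SE 0.20, adjusted p = 0.0105).

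Mrpl53, another protein of the large subunit, rose in bipolar cells from 38.0, 41.4 and 38.0 CPM to 70.1, 73.5 and 60.3 (0.79, SE 0.24, adjusted p = 0.0159), a change that did not pass with DESeq2 (adjusted p = 0.051). Most of its exon sequence, 695 of 790 bases, is shared with Gm42688 on the same strand, so that its counts are uncertain. Mrps25, a small subunit protein, rose in rods from 53.7, 16.4 and 33.7 CPM to 61.5, 80.0 and 81.4 (1.06, SE 0.37, adjusted p = 0.0345). The control value of 16.4 rests on 3 UMIs, and 4590 bases of Mrps25 exons are shared with Nr2c2 on the opposite strand. In rods of clusters led by a rod marker the change was 0.86 and did not pass (adjusted p = 0.105).

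The genes whose symbols or roles set them apart were also read in the whole retina. Mrpl12, which besides its place in the large subunit binds the mitochondrial RNA polymerase, fell from 34.9, 32.7 and 34.6 CPM to 23.8, 25.5 and 25.2 (−0.46, adjusted p = 0.0352). Mrpl58, a peptidyl-tRNA hydrolase that rescues stalled mitoribosomes, fell from 48.6, 54.8 and 57.8 CPM to 29.6, 26.9 and 29.9 (−0.90, adjusted p = 0.00056). Mrps36, of the 2-oxoglutarate dehydrogenase complex, fell by 0.37 on the log2 scale (adjusted p = 0.0318). Of the 3 genes related to bacterial ribosomal protein S18, Mrps18b and Mrps18c, both of the small subunit, fell by 0.69 (adjusted p = 0.0319) and 0.88 (adjusted p = 0.00112) on the log2 scale. Mrps18a, of the large subunit, was at 28.8, 26.3 and 37.6 CPM against 29.4, 31.4 and 31.3 and did not pass (−0.02, adjusted p = 0.94). The other large subunit protein with an Mrps symbol, Mrps30, did not pass either (0.24, adjusted p = 0.348).

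The other parts of mitochondrial translation did not all move alike. The ribosomal RNAs of the mitoribosome, mt-Rnr1 and mt-Rnr2, fell in all 5 classes, with medians from −3.05 in rods to −2.37 in cones. In the whole retina mt-Rnr2 was at 31010, 35940 and 46640 CPM in control mice and 7474, 3827 and 4163 in Phase I ROP mice. The mitochondrially encoded rRNAs thus took 4.02% ± 0.738 (SD, n = 3) of control UMIs and 0.683% ± 0.244 of Phase I ROP UMIs. The part of this difference in the MRP values was not tested. Of the 13 mitochondrially encoded proteins 13 fell in amacrine cells, 12 in bipolar cells, 11 in cones, 10 in rods and 1 in Müller glia. Of all tested genes 20.5%, 23.9%, 7.9%, 20% and 5.03% fell in these classes, in the same order.

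Among nuclear genes, 4 of 14 tested mitoribosome assembly factors fell in bipolar cells and none rose, where 23.9% of all tested genes fell. They included the RNA helicase Dhx30 (523, 484 and 455 CPM against 125, 117 and 104, log2 fold change −2.08) and the GTPases Mtg2 (−2.35) and Noa1 (−1.34). Of the translation factors and mRNA stability proteins of mitochondria, 1 of 11 fell in bipolar cells and 1 of 12 in amacrine cells. Of all tested genes 23.9% and 20.5% fell there. Both times the gene was Slirp, a partner of Lrpprc (−0.9985 and −1.18). Elongation factor Tufm did not pass in either (0.03 and −0.35). Of 21 mitochondrial tRNA synthetases tested in the whole retina 5 rose and 3 fell, led by Cars2 (−1.78). Among 14 regulators of mitochondrial biogenesis 5 rose and 1 fell in the whole retina. Of all tested genes there, 24.7% rose and 23.4% fell. Ppargc1a and Ppargc1b, coactivators of such regulators, rose by 1.56 and 1.88 on the log2 scale, Yy1 rose by 0.95, and Nrf1 and Tfam did not pass (0.06 and 0.05).

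Cytosolic ribosomal proteins offer the closest comparison by function. Of 89 tested, 87 fell in amacrine cells and 86 in bipolar cells (medians −0.75 and −0.71), close in size to those of the MRP genes. In rods 9 of 89 fell and in Müller glia 2 of 87 (medians −0.35 and −0.16). Of all tested genes, 20.5% fell in amacrine cells, 23.9% in bipolar cells, 20% in rods and 5.03% in Müller glia. The 6 mitoribosome proteins with other symbols gave 3 falls in bipolar cells and 2 in amacrine cells, where 23.9% and 20.5% of all tested genes fell, and are too few to read against these shares. Rod markers made up 0.138% ± 0.0342 (SD, n = 3) of UMIs in control bipolar cells and 0.247% ± 0.0486 in Phase I ROP bipolar cells, and 0.0532% ± 0.00581 and 0.118% ± 0.0216 in amacrine cells. The part of this rod RNA in the MRP values was not tested.

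**Figure D4:**
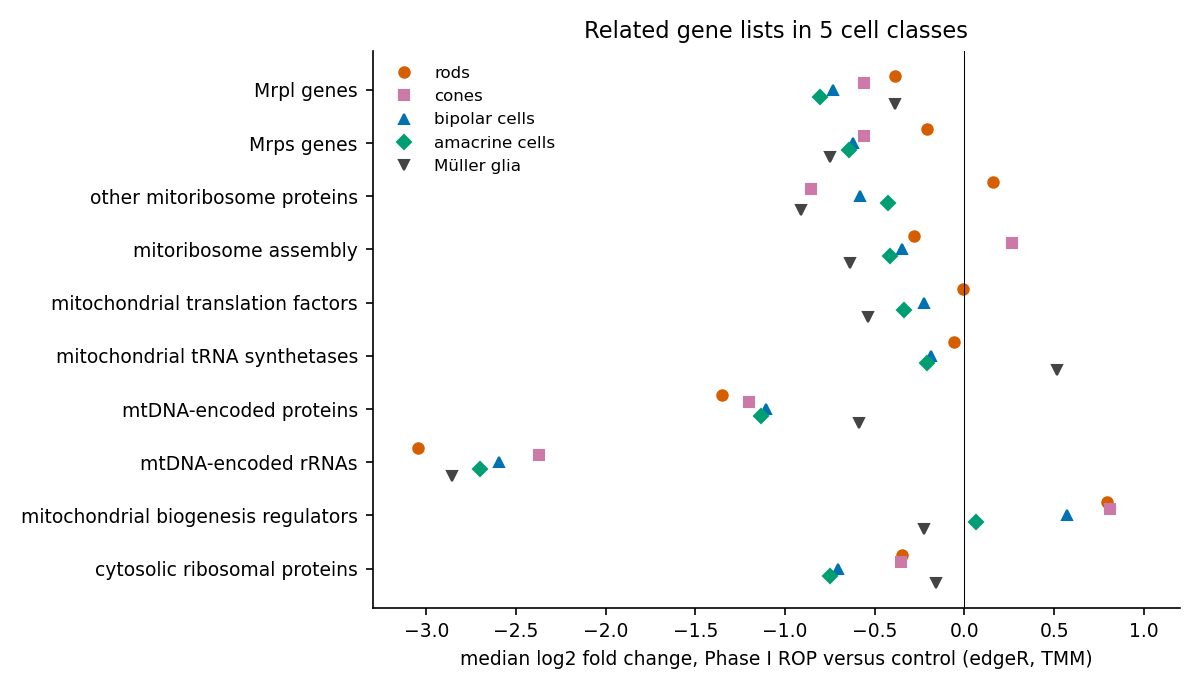
Median log2 fold change, Phase I ROP versus control (x axis), of MRP genes and related gene lists (y axis) in the 5 cell classes (symbols), for lists with more than 1 gene tested in a class. Both mitochondrially encoded rRNAs lie farthest to the left, cytosolic ribosomal proteins lie near the MRP genes in bipolar and amacrine cells, and the biogenesis regulators lie to the right of 0 in rods, cones, bipolar and amacrine cells.

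The STZ-treated mice on enriched diets were set beside these values on unscaled CPM. In the whole retina Mrps26 was at 414, 396 and 316 CPM in control mice and between 108 and 159 in all 8 STZ-treated mice. Mrpl13 was at 181, 263 and 166 CPM against 63.6 to 95.3, and Mrpl15 at 155, 138 and 132 against 47.5 to 69.7. Mrpl44 was at 16.2, 16.8 and 14.8 CPM against 26.5 to 39.2. For 24 of the 78 MRP genes every control mouse lay above all 8 STZ-treated mice, as it did for 12% of the 17342 genes with at least 100 UMIs. In amacrine cells this held for 23 of the 78 genes (8.21% of all genes), in bipolar cells for 13 (10.4%) and in rods for 10 (10.3%), the last a share near that of all genes. In the whole retina, for 4 MRP genes every control mouse lay below, Mrpl44, Mrpl53, Mrpl37 and Mrps30, against 28.5% of those genes. The same was found for 5 MRP genes in rods, 2 in bipolar cells and 1 in amacrine cells, against 27.3%, 27.4% and 25.9% of all genes. In bipolar cells Mrpl44 did not keep its separation, since an ω-6 mouse (18.0 CPM) lay below a control mouse (19.9).

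Sequencing depth per cell differed between control and Phase I ROP. Cells with fewer than 800 UMIs were left out and the others thinned to 800. In bipolar cells this left out 18, 19 and 55 cells of the control mice and 77, 40 and 43 of the Phase I ROP mice. The remaining bipolar cells held a mean of 4.07 to 4.10 MRP UMIs in control mice and 2.96 to 3.26 in Phase I ROP mice. Thinning keeps the expected share of MRP UMIs in each cell, so such means follow the shares given above. Whether depth had a part in the difference was not tested. In amacrine cells, with 6 to 7 control and 18 to 31 Phase I ROP cells left out per mouse, the range was 3.58 to 3.76 against 2.77 to 2.87. In cones it was 3.69 to 4.38 against 3.07 to 3.52. The groups nearly met in Müller glia (2.881 to 3.50 against 2.21 to 2.872) and in rods (3.761 to 4.92 against 3.36 to 3.745). In rods 52, 56 and 175 cells of the control mice and 417, 267 and 666 of the Phase I ROP mice were left out.

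The change with STZ was also compared between classes in a joint fit. It differed for 4 of the 78 genes, where 10.2% of all tested genes differed. Mrpl13 differed most (adjusted p = 4.75e-05), with larger falls in rods and bipolar cells than in cones, amacrine cells and Müller glia. The difference depended on the rods counted, and did not pass when the rods of the 2 clusters led by an MRP gene were left out (adjusted p = 0.0817) or when only rod clusters led by a rod marker were used (0.0648). Mrps33, Mrps26 and Mrpl18 did not pass once cones were left out, where 9.04% of all genes differed (adjusted p = 0.16, 0.0608 and 0.237).

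The comparison of the ω-6 with the ω-3 LCPUFA diet in Phase I ROP asked whether the kind of LCPUFA was accompanied by a difference in MRP transcripts. Their share of UMIs was close in the diets. In bipolar cells it was 0.400% and 0.374% in ω-3 mice and 0.404%, 0.400% and 0.391% in ω-6 mice, which overlapped. In amacrine cells it was 0.329% and 0.316% against 0.347%, 0.340% and 0.338%, and in cones 0.435% and 0.457% against 0.480%, 0.474% and 0.468%. In these 2 classes the ω-6 mice lay above the ω-3 mice. The ratio of the mean ω-6 to the mean ω-3 share ran from 1.02 in rods to 1.06 in cones. With 2 against 3 mice the smallest p that such a test allows is 0.2, and none was run.

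No MRP gene was called by edgeR in any class or in the whole retina, where 0.0161% of all genes tested were called in rods and 0% in the other classes and the whole retina, and none was called by DESeq2. At an unadjusted edgeR p under 0.05 there were 9 of 78 genes in the whole retina (11.5%, against 7.06% of all tested genes). There were 8 of 78 in rods (10.3% against 11.2%) and 7 of 76 in cones (9.21% against 8.03%). Amacrine and bipolar cells each had 4 of 78 (5.13%, against 9.89% and 4.21%). Müller glia had 1 of 66 (1.52% against 3.56%). Median log2 fold changes ran from 0.09 in bipolar cells to 0.19 in amacrine cells, all above 0, where no median of all genes was above 0.02. With 2 mice on the ω-3 diet, a p that misses the threshold does not show equal levels.

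The genes with the smallest unadjusted p in each class give the size of what was seen. In rods Mrpl39, a large subunit protein found only in mitochondria, was at 14.9 and 17.5 CPM in ω-3 mice and 23.8, 33.6 and 35.8 in ω-6 mice (0.91, SE 0.27, adjusted p = 0.347). Mrpl11, with a bacterial counterpart at the site where translation factors bind, was at 41.9 and 38.9 CPM against 61.9, 65.8 and 59.4 (0.63, adjusted p = 0.347). Mrps33, a small subunit protein found only in mitochondria, was at 185 and 173 CPM against 242, 228 and 236 (0.40, adjusted p = 0.383). All ω-6 mice lay above both ω-3 mice for these 3 genes. Mrps33 was likewise higher in every ω-6 mouse in cones, at 141 and 151 CPM against 227, 206 and 182 (0.49, adjusted p = 0.6).

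In cones the others were Mrpl55 (47.1 and 29.1 CPM against 88.4, 63.8 and 89.0) and Mrps28 (33.1 and 30.9 against 70.3, 61.0 and 54.7), with adjusted p = 0.537 and 0.57. Mrps28 was also the leading gene in bipolar cells, at 21.1 and 17.7 CPM against 43.1, 33.1 and 40.1 (0.99, SE 0.34, adjusted p = 0.991). Mrpl39 had the same direction there (0.99), whereas Mrpl50 was lower in all ω-6 mice (50.2 and 48.6 CPM against 22.96, 34.2 and 25.5). In amacrine cells Mrpl44 was at 18.8 and 14.8 CPM in ω-3 mice and 35.2, 24.4 and 34.2 in ω-6 mice (0.88, SE 0.30, adjusted p = 0.474), with Mrpl18 (0.57) and Mrpl4 (0.68) in the same direction. In Müller glia Mrpl20 was at 73.4 and 62.4 CPM against 99.4, 110 and 154 (0.83, adjusted p = 0.994), Mrps21 overlapped (0.67) and Mrpl52 was lower in all ω-6 mice (−0.61). In the whole retina Mrpl21 (0.54), Mrps22 (0.52) and Mrpl4 (0.44) led, each with an adjusted p of 0.682. None of these passed the test.

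The only genes called between the diets in rods were the rRNAs of the mitoribosome itself. In rods mt-Rnr1 was at 1047 and 838 CPM in ω-3 mice and 2897, 3022 and 1866 in ω-6 mice (log2 fold change 1.46, SE 0.20, adjusted p = 0.0466). The value of mt-Rnr2 was 3544 and 2843 CPM against 9283, 8833 and 6182 (1.34, SE 0.17, adjusted p = 0.0466). Both were higher with the ω-6 diet, without a called change in any MRP gene.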

How the data were processed

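The authors identified cell barcodes and UMIs with the umis tool in bcbio-nextgen, dropped barcodes with fewer than 500 reads, assigned reads to mouse transcripts with RapMap and counted unique UMIs per gene. The build named in the submitters' processing notes is mm10 (GRCm38.p6). What they deposited is 1 matrix of whole UMI counts (genes by cells) that has not been normalized. The assay reads transcript ends, so a count reflects molecules and not transcript length.

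Cells with more than 300 genes (20033 of 20067) were clustered with Seurat 5.3.0 after the study's settings (2000 variable genes, 75 principal components, resolution 0.2), giving 25 clusters. A cluster was named only where at least 3 markers of the class were detected. Where a marker stood among its 10 leading genes, no more was asked. Otherwise its markers had to average a log2 fold of at least 1, and its UMIs per cell had to reach 1/3 of the library median. A cluster of 309 cells was so named amacrine with a mean log2 fold of −0.558, below that of horizontal cell markers (−0.302). In all, 315 cells stayed unnamed. Scrublet (scanpy 1.11.5) called fewer than 0.5% of cells as doublets, too few to be of use, so no cell was removed, and leaving out the 5% of cells with the highest scores in each library was an alternative. Because the names were rebuilt, classes can differ from the study's.

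UMIs were summed per mouse and class, with the mouse as replicate, in classes with at least 10 cells in every mouse. Comparisons used edgeR 4.0.16 (R 4.3.3) with the quasi-likelihood test, Benjamini-Hochberg adjustment over all genes tested, TMM factors and edgeR's own filter on low counts, with only the 2 groups compared in a fit. CPM printed beside a test are TMM-scaled, and other CPM are not scaled beyond the library total. The class by condition test was a joint edgeR fit with the mouse as a block. Other settings were no filter, DESeq2 1.42.0, scaling by median of ratios, all 4 groups in 1 fit, the replicate number as a block, cells with more than 500 genes, thinned sums and each mouse left out. Scaling by library totals alone, rods of clusters led by a rod marker, rods without the 2 clusters led by an MRP gene, and the settings of the joint fit were chosen after seeing the data. Scripts were tested on simulated counts. Shares and counts carry counting error beside the spread between mice.

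The genes and lists were chosen with earlier results of these data known. In each class and comparison, values are given for the 3 largest called increases and decreases whose mice do not overlap (5 in the whole retina), or the 3 smallest unadjusted p where none was called; Mrps18a, Mrps18b, Mrps18c, Mrps30, Mrps36, Mrpl58 and Mrpl12 were read in the whole retina, and Mrpl9 in rods was named after its values were seen. Kinases and a binding protein whose symbols resemble cytosolic ribosomal proteins were left out of that list. Positions are from GENCODE M21 (GRCm38) and promoters from RefSeq (GRCm38.p6). Counting did not separate overlapping genes, and whether it used strand is not given in the sources used here.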

Additional observations from a re-analysis of the deposited data

Results flagged for a closer look

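For 4 of the 78 MRP genes the change between Phase I ROP and control differed between the cell classes in the joint edgeR fit (10.2% of the genes tested did so). Mrpl13 had an adjusted p = 4.75e-05, with log2 fold changes of −2.89 in rods and −2.35 in bipolar cells, and of −1.19 in amacrine cells, −1.13 in cones and −0.92 in Müller glia. Mrps33 had an adjusted p = 0.00608, with −0.96 in bipolar cells, −0.92 in amacrine cells, −0.57 in Müller glia, −0.26 in rods and 0.85 in cones. In cones it was at 35.7, 68.8 and 200 CPM in control mice and 224, 214 and 242 in Phase I ROP mice, the controls scattered and all Phase I ROP mice above them. Mrps26 had an adjusted p = 0.0155, with −0.39 in cones, −1.25 in amacrine cells, −1.94 in bipolar cells, −2.02 in Müller glia and −2.31 in rods. Mrpl18 had an adjusted p = 0.0424, with −1.10 in bipolar cells, −0.93 in amacrine cells, −0.29 in rods and −0.23 in Müller glia, and it was not tested in cones. Without cones, of which control mice had 13 to 46 cells, only Mrpl13 was called (adjusted p = 5.58e-05, with 9.04% of all genes called). Mrpl13 did not pass when the rods of the 2 clusters with an MRP gene among their leading genes were left out (adjusted p = 0.0817, log2 fold change in rods −1.87) or with rods of clusters led by a rod marker only (adjusted p = 0.0648). In the other fits its adjusted p ran from 8.38e-07 to 0.0203. Mrps26 did not pass with rods of clusters led by a rod marker only (adjusted p = 0.0679), and Mrps26 did not pass without STZ replicate 1, 2 or 3 (adjusted p = 0.0848, 0.196 and 0.118).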

How the results depend on the processing

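The counts of MRP genes called between Phase I ROP and control moved with scaling, with depth and with single libraries. These counts are not set against the shares of all genes called in the same settings. With library totals alone they were 30 in the whole retina, 24 in amacrine cells, 18 in bipolar cells, 8 in rods and 0 in cones, against 46, 42, 43, 14 and 3 with TMM, since TMM sets the median gene near 0 and library totals do not. In rods sums thinned to equal depth gave 8. In cones DESeq2 gave 1, and no filter, the replicate block and thinned sums gave 0 each. In Müller glia no filter and all 4 groups in 1 fit gave 5 each, against 3. Leaving out each mouse in turn gave 35 to 50 calls in the whole retina, 34 to 41 in amacrine cells, 30 to 45 in bipolar cells, 4 to 17 in rods, 2 to 5 in Müller glia and 0 to 3 in cones; the cone count was 0 without control replicate 3 or STZ replicate 1, 2 or 3, and the Müller glia count was 5 without control replicate 3. The joint fit gave 1 without cones, 3 without the rods of clusters led by an MRP gene, and neither that fit nor the fit of rods led by a rod marker called Mrpl13; it gave 2 to 5 with a mouse left out, with 2 without STZ replicate 1 or STZ replicate 3. The direction of Mrps18a in the whole retina (−0.02) turned with library totals (0.25), no filter (0.0231) and 1 mouse left out (−0.12 to 0.16). Between the diets, without ω-3 replicate 1, Mrps18b and Mrps18c turned, with −0.21 to 0.48 and −0.027 to 0.48 over the mice left out. For genes named in the text, 483 of 516 values under other settings kept direction and side of the threshold, 31 no longer passed and 2 turned. With a mouse left out 268 of 311 did, 39 no longer passed and 4 turned. Both totals include genes without a call in the main fit, among them all those of the diets, which had no call to lose. All 39 that no longer passed belonged to Phase I ROP against control. No MRP gene was called between the diets in any setting run. The replicate block gave 46 calls in the whole retina, 41 in amacrine cells, 43 in bipolar cells, 11 in rods and 4 in Müller glia. The labels give the replicate numbers no meaning, and the mice were not treated as paired. Correlations of same-numbered mice ran from −0.05 to 0.15 between Phase I ROP and control. Between the diets they ran from 0.05 to 0.27, all above 0. Where not explained above, the cause was not tested. Control cones and Müller glia held too few UMIs for 58 and 38 of the 78 genes to be tested.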

Other observations

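In classes too small to test, UMIs pooled over all mice gave a share from MRP genes of 0.549% in 31 horizontal cells, 0.365% in 96 retinal ganglion cells, 0.340% in 75 pigment epithelium cells, 0.302% in 47 astrocytes, 0.299% in 113 endothelial cells and 0.217% in 59 microglia. Microglia were below rods (0.438%, pooled in the same way) in each of the 11 mice. These classes were named from the same marker rule and were too small for a comparison between conditions.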
